A study of Mus musculus with 12 samples.

Results

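NMDA receptor subunits are encoded by 7 genes in the mouse, Grin1, Grin2a, Grin2b, Grin2c, Grin2d, Grin3a and Grin3b, and their transcripts were followed here in retinal cells of newborn wild-type mice and mice with floxed Ezh2 and Math5-Cre. The members were taken by gene symbol from 2 tables of 38720 genes each, one for retinal ganglion cells (RGCs) and one for the other retinal cells (non-RGCs), and all 7 were present in both. RGCs had been bound to magnetic beads by an antibody to CD90 (Thy-1), and non-RGCs were the cells left over. The mKO pups carried Math5-Cre and floxed Ezh2 on both alleles, the controls were wild type (WT), all were of the C57/BL6 strain, retinas were taken at postnatal day 0, and the labels name no treatment. Each of the 4 groups held 3 libraries from separate RNA extractions. The study's general methods name floxed littermates as controls unless stated otherwise, while its sample labels and RNA-seq methods call these controls wild type, and the labels do not say how many pups entered each extraction, so p-values measure only the spread between these extractions, which may be technical. As a model, mKO is limited by its driver: Math5-Cre acts in cells of the Math5 lineage and only in part of the RGCs, so RGCs that kept Ezh2 may be in the mKO libraries too. The study describes Math5-Cre as a knock-in, which the controls lack. Effects of Cre or its insertion and of Ezh2 loss therefore cannot be told apart here.

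An NMDA receptor is a glutamate-gated cation channel built from obligatory GluN1 subunits (Grin1), which bind the co-agonist glycine or D-serine, together with GluN2 subunits (Grin2a to Grin2d), which bind glutamate and set the channel's kinetics, magnesium block and tethering at the synapse, or GluN3 subunits (Grin3a, Grin3b), which bind glycine and lower calcium entry. In developing neurons GluN2B and GluN2D come early and GluN2A and GluN2C rise later. RGCs receive glutamate from bipolar cells, and excess calcium entry through NMDA receptors is a classical route of excitotoxic RGC death; Ezh2 is the enzyme of Polycomb repressive complex 2 that methylates histone H3 on lysine 27.

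On GRCm38, the assembly that mm10 names, Grin1 (ENSMUSG00000026959) lies at chr2:25291181-25319187 on the minus strand. The GluN2 genes are Grin2a (ENSMUSG00000059003, chr16:9567898-9995560, minus), Grin2b (ENSMUSG00000030209, chr6:135713233-136173511, minus), Grin2c (ENSMUSG00000020734, chr11:115249169-115267243, minus) and Grin2d (ENSMUSG00000002771, chr7:45831883-45878378, minus). The GluN3 genes are Grin3a (ENSMUSG00000039579, chr4:49661611-49845744, minus) and Grin3b (ENSMUSG00000035745, chr10:79970715-79977190, plus). The genes differ in the GC content of their exons, which bears on the comparisons below: Grin3a had 44.0%, Grin2b 45.8% and Grin2a 47.5%, while Grin1 had 56.3%, Grin2c 62.0%, Grin3b 63.5% and Grin2d 64.2%. They also differ in exon length, from 3296 bases in Grin3b to 24842 bases in Grin2b, of which 18868 are the 3′ untranslated region of its transcript with the longest coding sequence.

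Reads of one subunit could be credited to another only where their transcripts match over a whole read, and libraries were sequenced for 75 cycles. Every exact stretch shared by a pair of members was shorter than a read. The stretch shared by Grin2c (chr11:115255377-115255408) and Grin2d (chr7:45856844-45856875) is shown as an example of this limit, and it is coding sequence of 32 bases, written on the strand of the genes:
Grin2c and Grin2d: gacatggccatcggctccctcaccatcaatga
Overlap with other genes is a larger source of doubt, since the sources do not say whether counting used strand. Grin3b shares 1059 exon bases, 32.1% of its exons, with Tmem259 on the opposite strand, Grin1 shares 1307 bases (13.5%) with the antisense gene Grin1os, and Grin2d shares 643 bases (9.66%) with the antisense gene Gm45441. Tmem259 had 1944 to 2361 normalised reads in WT RGCs against 28.0 to 44.6 for Grin3b, so Grin3b values are uncertain.

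Promoter windows from RefSeq (GRCm38.p6), reaching from 250 bases before to 50 bases after the annotated start, were matched for 4 of the 7 members, Grin1, Grin2c, Grin2d and Grin3b. Grin1 and Grin2d are shown because their transcripts varied together over the RGC libraries (described with the values), with every CG dinucleotide in capitals, since Polycomb repressive complex 2 is known to act at CpG-rich promoters. The Grin2d window lies wholly inside the GENCODE gene, downstream of the gene's 5′ end at position 45878378, so its counts describe this window only. The Grin1 window is chr2:25319138-25319437 and the Grin2d window is chr7:45866632-45866931, both on the minus strand and written 5′ to 3′:
Grin1: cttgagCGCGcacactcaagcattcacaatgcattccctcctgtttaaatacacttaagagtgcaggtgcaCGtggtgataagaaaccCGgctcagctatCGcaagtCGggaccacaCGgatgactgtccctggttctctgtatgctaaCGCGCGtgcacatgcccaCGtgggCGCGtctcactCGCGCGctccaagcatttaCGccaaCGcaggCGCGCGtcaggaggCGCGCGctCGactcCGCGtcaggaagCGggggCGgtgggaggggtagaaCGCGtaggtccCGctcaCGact
Grin2d: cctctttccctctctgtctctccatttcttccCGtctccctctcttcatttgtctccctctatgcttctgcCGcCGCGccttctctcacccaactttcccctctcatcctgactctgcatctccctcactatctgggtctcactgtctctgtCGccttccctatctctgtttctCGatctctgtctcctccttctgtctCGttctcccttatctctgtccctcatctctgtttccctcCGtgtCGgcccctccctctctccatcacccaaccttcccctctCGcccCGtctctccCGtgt
Grin1 held 33 CG dinucleotides, Grin2c 22, Grin2d 12 and Grin3b 3, against a median of 7 over 32851 windows of the same length. The GC box GGGCGG, searched on both strands with overlaps counted, occurred 1 time in Grin1, 3 times in Grin2c and not in the other 2 windows, and 35.7% of all windows held it. The motif TTCAGCACC, one arm of the element bound by the neuronal repressor REST, searched likewise, was in none of the 4 windows and in 0.371% of all windows. Chromatin data were not analysed here, and no link between promoter sequence and level was tested.

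The libraries held 7139633 to 13014004 reads on genes. Values are given as normalised reads, the reads of a library divided by the authors' size factor, and the letters A, B and C stand for the order of read depth within a group, deepest first. Ezh2 itself, whose floxed exons are only a part of the gene, had 1190, 1206 and 1678 normalised reads in WT RGCs and 1354, 1476 and 1443 in mKO RGCs, with overlap (0.09 ± 0.13 on the log2 scale, limma adjusted p = 0.637). Without WT library C, Ezh2 was called higher in mKO RGCs (0.25 ± 0.05, adjusted p = 0.00419), and with the GC trend removed as well it was not (0.05, adjusted p = 0.448). A count over the whole gene does not check the deletion of the floxed exons, and Ezh2 was not called lower in the libraries labelled mKO under any of these settings. The study itself reported less Ezh2 in newborn mKO RGCs by qPCR and Western blot, and a change of Ezh2 in its RNA-seq. In non-RGCs Ezh2 had 2115, 2149 and 1683 normalised reads in WT and 1889, 2107 and 2509 in mKO. WT RGC library C stood apart from WT libraries A and B: reads of 9 progenitor markers summed to 1791 RPM (reads scaled to a common library total) in it against 1069 and 1124, and those of 8 photoreceptor markers to 792 against 535 and 547. Between genotypes, 10 of 12 RGC markers were lower in mKO RGCs (2059 to 2130 RPM summed, against 2619 to 2766 in WT), and 8 of the 12 were higher in mKO non-RGCs (608 to 814 against 513 to 539). With the GC trend removed 8 were lower in RGCs and 5 higher in non-RGCs. Among all genes tested, 21.2% were called lower and 16.3% higher in RGCs, and 6.43% and 4.18% in non-RGCs. With the GC trend removed these shares were 9.41% and 6.15% in RGCs, and 0.874% and 1.24% in non-RGCs. The bead antigen Thy1 had 2 to 9 reads in WT non-RGC libraries and 66 to 87 in mKO non-RGC libraries. All 5 blood markers were higher in mKO in both fractions (24 to 30 RPM summed against 9 to 11 in RGCs, 57 to 86 against 12 to 19 in non-RGCs), and no RGC or blood marker was at 0 in any library. In mKO RGCs 5 of the 8 photoreceptor markers and 3 of the 9 progenitor markers were lower as well, which became 2 and 0 with the GC trend removed. Without WT library C, 1 photoreceptor marker and 2 progenitor markers were higher, and 5 of each list were lower. The progenitor sums of mKO RGCs (1124 to 1232 RPM) were not below those of WT libraries A and B. The part of these differences in the results on the subunits was not tested, and in bulk samples fewer cells of a type and less RNA per cell cannot be told apart.

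Did RGCs of mKO and WT pups carry different sets of NMDA receptor transcripts? Grin1, the obligatory subunit, was lower in mKO RGCs. Grin2d, the other abundant GC-rich subunit, lay lower on average without passing the test, and WT library C lay among its mKO libraries. Grin2b and Grin3a lay higher on average with overlapping libraries. Of the 7 members 1 was called at an adjusted p under 0.05, where 37.5% of the 16085 genes tested were called, 16.3% higher and 21.2% lower. The share of members called was below that of all genes, but it rests on 1 gene of 7, and the count ranged from 0 to 3 across the settings tried. The members' median log2 difference was -0.43, against -0.0024 over all genes tested. Its sign turned with the GC trend removed, to 0.15 against 0.053 over all genes, and in non-RGCs the members' median was 0.06 against -0.03 over all genes.

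**Figure D1:**
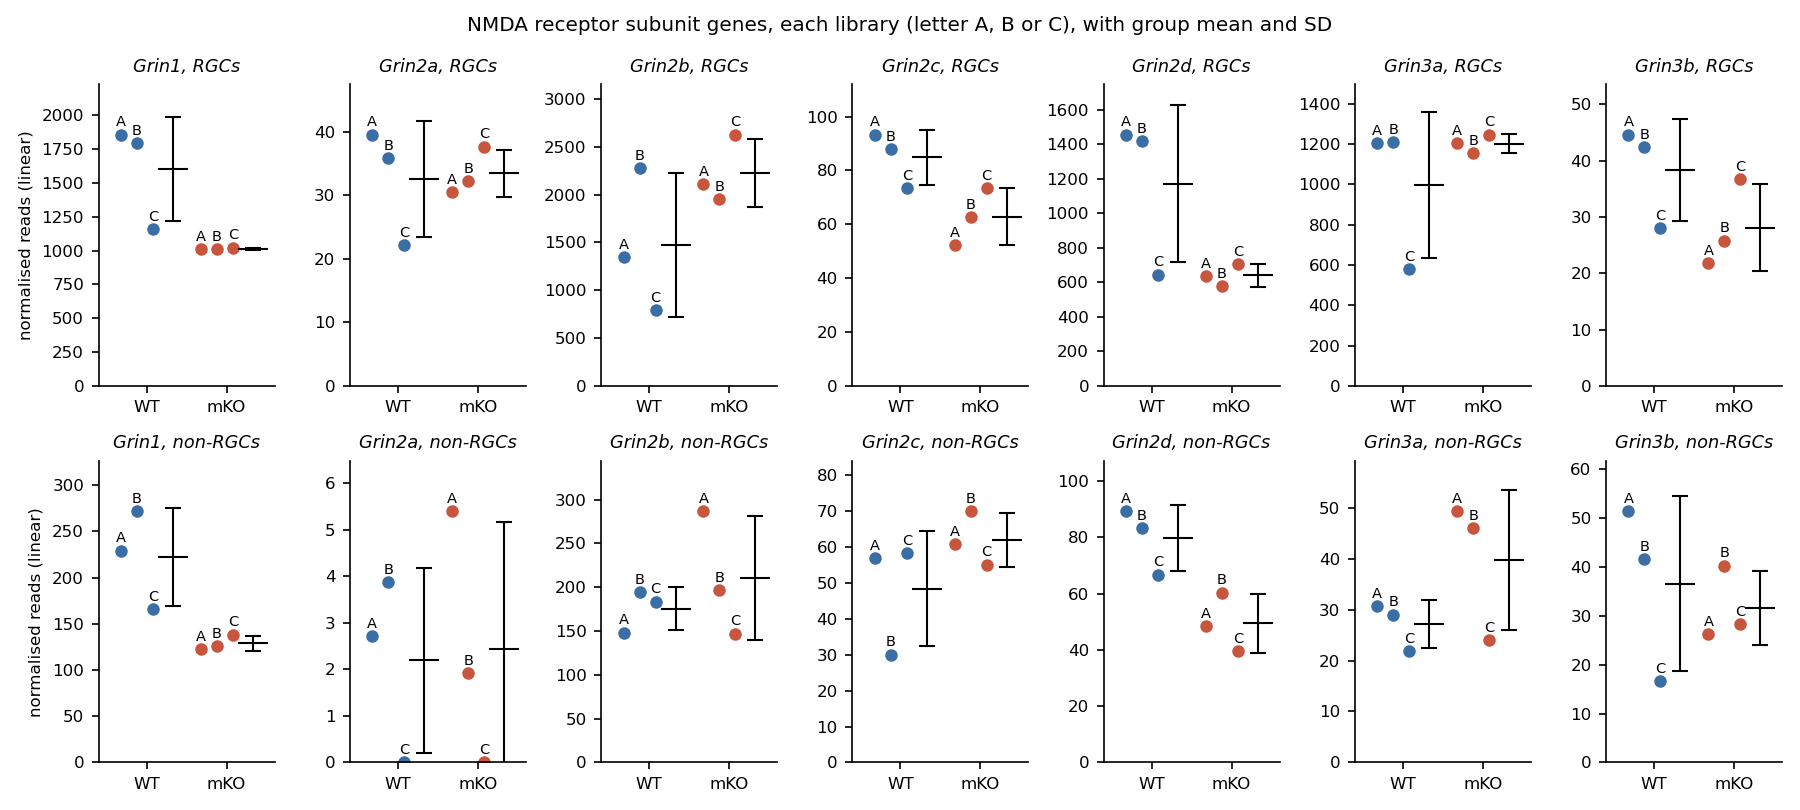
Normalised reads (linear axis from 0, a scale for each gene) of the 7 subunit genes in each library of WT (blue) and mKO (red) RGCs (top) and non-RGCs (bottom), with letters for libraries and a horizontal mark and bar for mean and SD (n = 3). WT RGC library C lies below libraries A and B for every gene, and for Grin1 all 3 mKO libraries lie between 1009 and 1022, below every WT library.

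Grin1 had 1857, 1793 and 1160 normalised reads in WT RGC libraries A, B and C and 1009, 1010 and 1022 in the mKO libraries. The mKO libraries lay close together and below every WT library, of which library C was the nearest. The difference was -0.63 ± 0.17 on the log2 scale (SE, n = 3 each), a level 1.55-fold lower in mKO, with an adjusted p of 0.0255 (limma, Benjamini-Hochberg over all genes, as for every adjusted p below). This call rested on the libraries kept: without WT library C the difference was -0.85 (adjusted p = 4.9e-05), while without any one of the other 5 libraries it was -0.64 to -0.51 with adjusted p from 0.068 to 0.0777.

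Grin2b encodes the GluN2 subunit of young neurons and had the most summed reads of the GluN2 genes in both WT and mKO RGCs. Per kilobase of exon its mean lay below that of Grin2d in both genotypes. Grin2b had 1347, 2278 and 790 normalised reads in the WT libraries and 2111, 1949 and 2625 in the mKO libraries. The WT libraries spanned more than the mKO libraries, and WT library B reached into the mKO range. The log2 difference of 0.72 ± 0.35 (95% interval -0.10 to 1.54) had an adjusted p of 0.146; without WT library B it was 1.10 with an adjusted p of 0.0158, and without WT library C it was 0.34 (adjusted p = 0.218).

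Grin2d encodes a GluN2 subunit with slow closing and weak magnesium block that is likewise typical of early development. It had 1455, 1417 and 645 normalised reads in WT and 637, 577 and 706 in mKO RGCs. WT libraries A and B both lay far above every mKO library, and WT library C lay among the mKO libraries. The difference of -0.79 ± 0.30 did not pass the test (adjusted p = 0.0786), and without WT library C it was -1.17 with an adjusted p of 5.75e-05. Without that library 2 of the 7 members were called, Grin1 and Grin2d, where 50.8% of all genes were.

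Grin2c and Grin2a, the GluN2 subunits known for later stages and for the cerebellum and the mature forebrain, were minor in RGCs. Grin2c had 93.2, 87.9 and 73.5 normalised reads in WT and 52.4, 62.7 and 73.4 in mKO RGCs. No mKO library reached a WT library, although the C libraries of both genotypes nearly touched, and the difference was -0.43 ± 0.19 with an adjusted p of 0.119. Grin1 and Grin2c were thus the 2 of 7 members with every mKO library below every WT library, a pattern seen in 28.2% of all genes tested, and no member had every mKO library above, a pattern of 24.8%. Grin2a had 39.5, 35.8 and 22.2 normalised reads in WT and 30.5, 32.3 and 37.6 in mKO RGCs. These ranges overlapped, and the difference of 0.08 ± 0.27 (adjusted p = 0.847) had a 95% interval from -0.57 to 0.72.

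Of the GluN3 subunits, Grin3a had 1204, 1212 and 579 normalised reads in WT RGCs and 1206, 1154 and 1247 in mKO RGCs. Apart from WT library C the genotypes lay at one level. The difference was 0.35 ± 0.27 (adjusted p = 0.350) with all libraries and -0.01 without WT library C, with a 95% interval from -0.12 to 0.10. Grin3b, read with the doubt about Tmem259 given above, had 44.6, 42.3 and 28.0 normalised reads in WT and 21.8, 25.8 and 36.7 in mKO RGCs. Its libraries overlapped and its difference was -0.44 ± 0.29 (adjusted p = 0.277), while Tmem259 itself was lower in mKO (-0.84 ± 0.08, adjusted p = 0.000813).

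With all libraries the direction of the members went with their base composition. In RGCs the log2 difference between genotypes fell with exon GC content across 12482 genes (Spearman correlation -0.71, a description over genes that share libraries), with a median of 0.36 in the group poorest in GC and -0.45 in the richest when genes were cut into 5 equal groups. With all libraries the 3 members with GC content under 50% had positive differences and the 4 members above it had negative ones. Without WT library C the 4 stayed negative and Grin2b stayed positive at 0.34. Grin2a was then at -0.17 and Grin3a at -0.01. With each library's GC trend removed, Grin1 was at -0.26 (95% interval -0.70 to 0.18) and no longer called (adjusted p = 0.375), Grin2d at -0.07, Grin2b at 0.60 and Grin3a at 0.15. The differences of Grin2c (0.19) and Grin3b (0.25) then turned positive. None of the 7 members was called after this correction, where 15.6% of all genes were, nor when a trend in read density was taken out as well (7.54% of all genes). With the trend removed and WT library C left out, an alternative chosen after seeing the data, 3 members were called lower in mKO, Grin1 (-0.50, adjusted p = 0.000348), Grin2d (-0.46, adjusted p = 0.00777) and Grin3a (-0.21, adjusted p = 0.0141), where 32.6% of all genes were called and 17.4% were lower. Whether the trend arose in the cells or in the libraries was not tested.

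**Figure D2:**
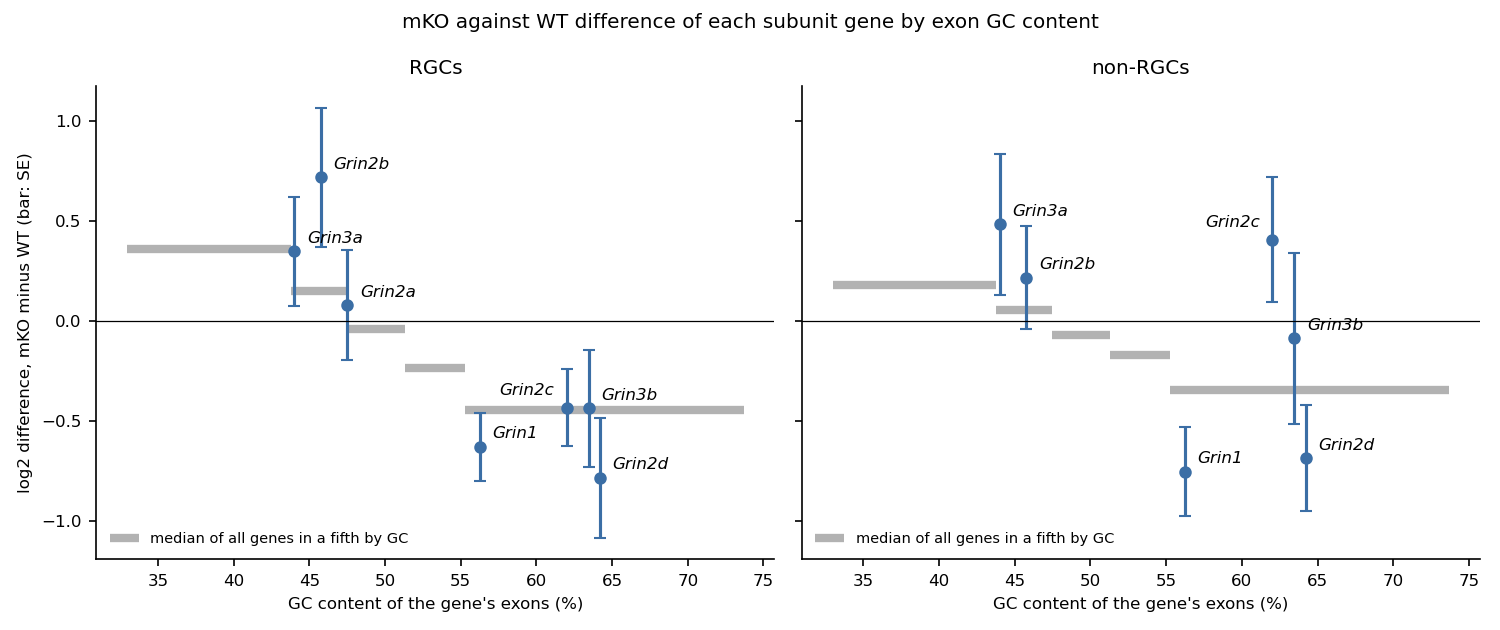
log2 difference between mKO and WT (points with SE) of each subunit gene against the GC content of its exons in percent, in RGCs (left) and non-RGCs (right), with grey bars for medians over genes reaching a mean of 50, in 5 equal groups by GC content. In RGCs, with all libraries, each member has the sign of the median of its group, but sizes vary. Members under 50% GC range from 0.08 (Grin2a) to 0.72 (Grin2b), where the median is 0.15. Members above 50% GC range from -0.79 (Grin2d) to -0.43 (Grin2c), where the median is -0.45. In non-RGCs Grin2c at 0.40 lies above the bar of its group.

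**Figure D3:**
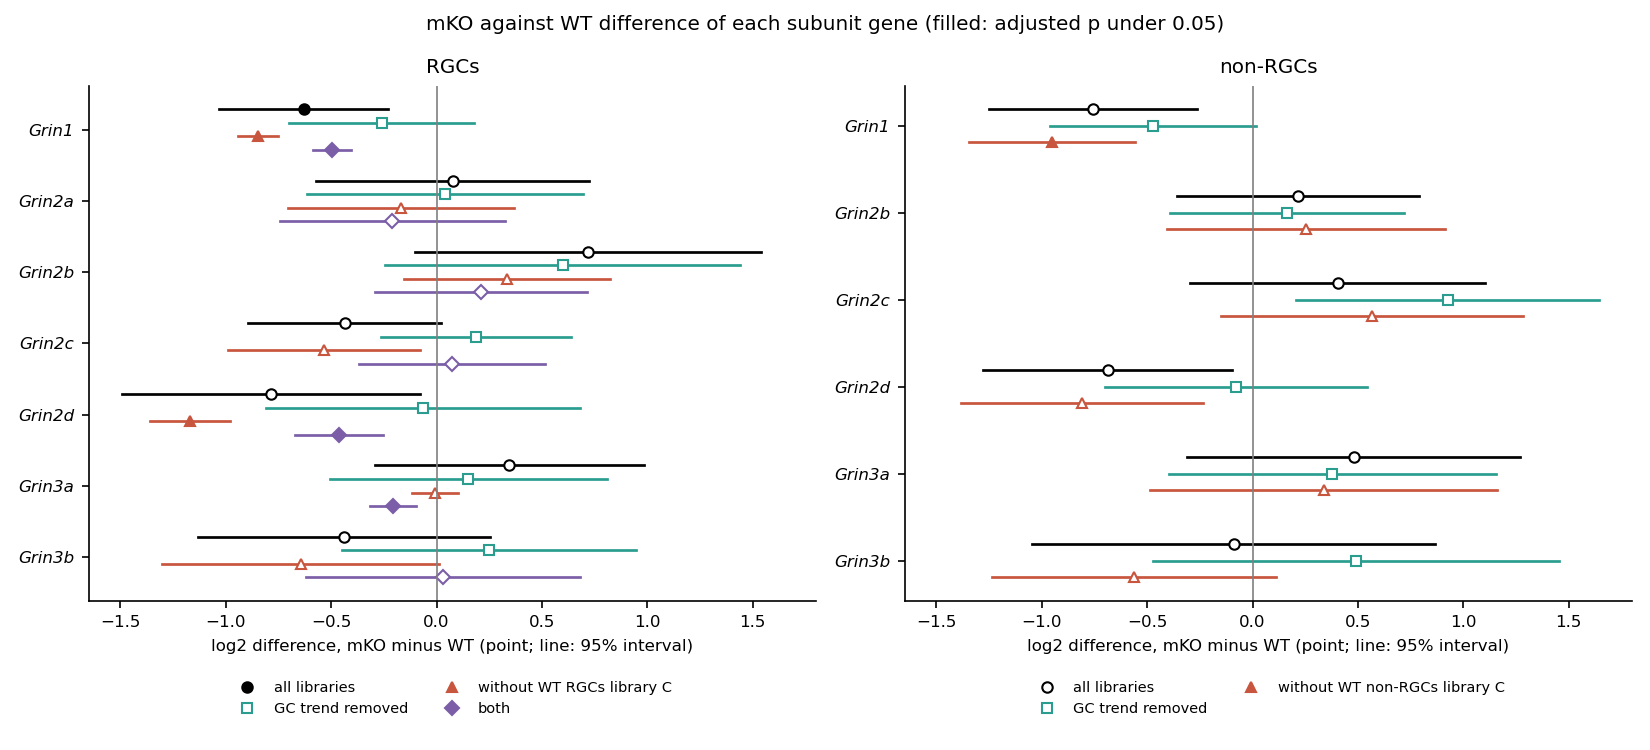
log2 difference between mKO and WT (symbol) with its 95% interval (line) for each subunit gene tested, in RGCs (left) and non-RGCs (right), with all libraries, with the GC trend removed, without WT library C, and in RGCs with both changes; filled symbols have an adjusted p under 0.05. Grin1 lies below 0 in every setting and is called in RGCs with all libraries, without WT library C and with both changes.

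Ratios within a library need no scaling between libraries. Reads per kilobase of exon were summed over the 4 GluN2 genes, and Grin2b made up 18.5%, 28.3% and 22.0% of that sum in WT RGC libraries A, B and C and 44.1%, 43.7% and 46.3% in the mKO libraries. Every mKO library lay above every WT library, including WT library C. The mean share was 22.9% ± 4.98 (SD, n = 3) in WT and 44.7% ± 1.38 in mKO, with an exact two-sided permutation p of 0.1, the smallest that 3 against 3 libraries allow. Grin2d made up the difference, with 69.1% ± 4.73 of the sum in WT and 48.1% ± 1.62 in mKO (exact p = 0.1). Grin2c took 5.4% to 10.1% in WT and 5.4% to 6.9% in mKO, and Grin2a 0.617% to 1.00%. Since Grin2b and Grin2d stand at opposite ends of the GC range, the shares were taken again with the GC trend removed (chosen after seeing the data): Grin2b then had 23.3% to 33.9% in WT and 36.5% to 39.5% in mKO RGCs, still without overlap, and the difference of its means shrank from 21.8 to 9.58 percentage points.

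**Figure D4:**
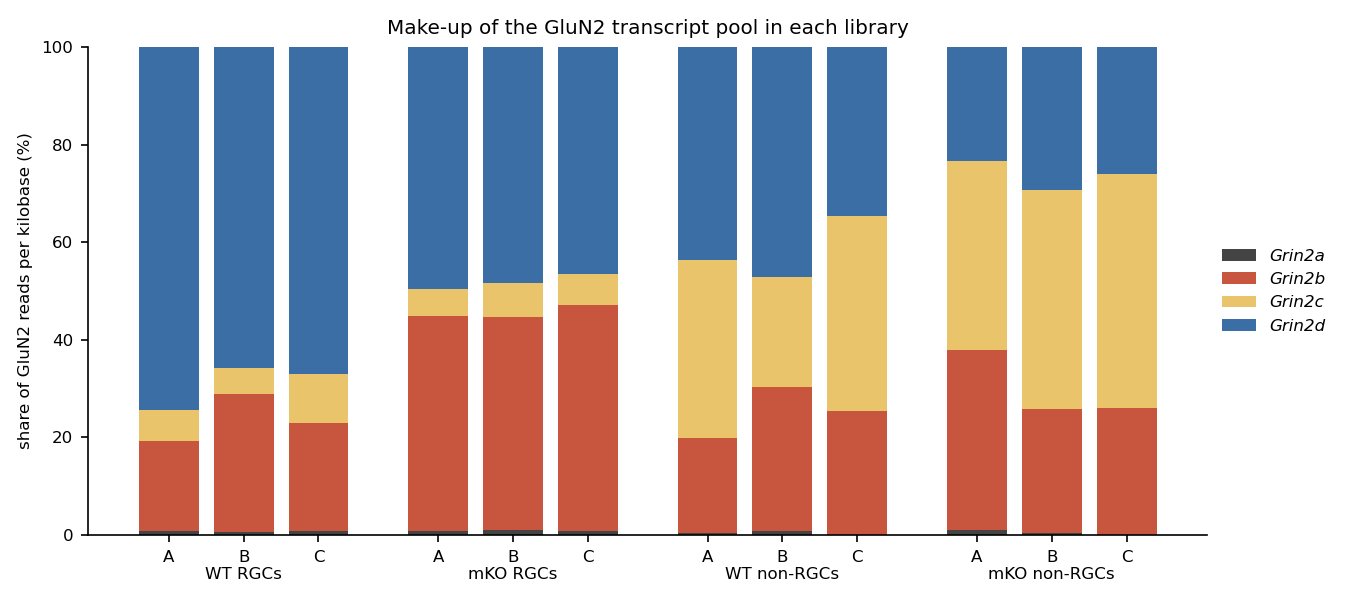
Share in percent of Grin2a, Grin2b, Grin2c and Grin2d in the summed reads per kilobase of exon of the 4 GluN2 genes, as a stacked bar for each of the 12 libraries. Grin2b takes 18.5% to 28.3% in WT RGCs and 43.7% to 46.3% in mKO RGCs, and Grin2c takes 22.5% to 48.0% in non-RGCs against 5.4% to 10.1% in RGCs.

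Grin3a was also compared with Grin1 within each library. Grin3a stood at 0.51, 0.53 and 0.39 of the Grin1 level per kilobase in WT RGC libraries A, B and C and at 0.94, 0.90 and 0.96 in mKO. The groups did not overlap (means 0.480 ± 0.0751 and 0.937 ± 0.0309, SD, exact p = 0.1), and with the GC trend removed the means were 0.581 and 0.768, still without overlap. The summed GluN2 genes stood at 1.21 to 1.75 of Grin1 per kilobase in WT and at 1.72 to 2.17 in mKO RGCs, ranges that overlapped (exact p = 0.2).

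Levels of different subunits were set side by side as RPKM, that is RPM divided by the exon length in kilobases. In WT RGCs the order of mean levels was Grin2d (14.04 ± 5.39, SD), Grin1 (13.2 ± 3.08), Grin3a (6.48 ± 2.32), Grin2b (4.72 ± 2.36), Grin2c (1.35 ± 0.153), Grin3b (0.928 ± 0.212) and Grin2a (0.145 ± 0.0399). Grin2d and Grin1 overlapped, as did Grin3a and Grin2b, every Grin1 library lay above every Grin3a library, and each of the 3 lowest genes stood clear of its neighbours. In mKO RGCs the 4 upper genes came together, with Grin1 at 9.09 ± 0.0615, Grin3a at 8.52 ± 0.274, Grin2d at 8.36 ± 0.763 and Grin2b at 7.80 ± 1.14, where only Grin1 and Grin3a had libraries that did not overlap. Grin2a stayed lowest at 0.162 ± 0.0157. These levels rest on the exons of all annotated transcripts, and a transcript that ends early, as a Grin2b transcript with a shorter 3′ untranslated region would, is underrated by them.

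The bead fraction and the remaining cells differed in which subunits they held. Because the study normalised the 2 tables separately, the fractions were compared in RPM and were not tested. In WT, Grin3a was 32.7-fold higher in RGCs than in non-RGCs, Grin2d 13.1-fold, Grin2b 7.49-fold and Grin1 6.42-fold, and for each of these the lowest RGC library lay above the highest non-RGC library. The lowest WT RGC library was also above the highest WT non-RGC library for Grin2a (5.12-fold) and Grin2c (1.15-fold), but not for Grin3b (0.483). The share of all genes with this pattern was not computed. Grin2c was 1.57-fold higher in WT RGCs and 0.875 times as high in mKO RGCs, and Grin3b did not favour RGCs in either genotype (0.928 and 0.768). Thy1, the antigen of the sort, was 407-fold higher in WT RGCs and 15.4-fold higher in mKO RGCs. Grin2a had 19 to 40 reads in each RGC library and 0 to 7 in each non-RGC library, which put it under the level tested in non-RGCs.

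In non-RGCs the question was whether subunit transcripts differed in cells that mostly lie outside the Math5 lineage. Grin1 had 229, 272 and 166 normalised reads in WT and 123, 126 and 138 in mKO non-RGCs. All mKO values were under the WT values, as in RGCs, and the difference was -0.75 ± 0.22 with an adjusted p of 0.0565. Without WT non-RGC library C it was -0.95 with an adjusted p of 0.0211 (1 of 6 members called, against 10.5% of all genes), and with the GC trend removed it was -0.47 (adjusted p = 0.222). Leaving out any other single non-RGC library gave -0.81 to -0.60 with adjusted p from 0.071 to 0.207. Marker lists moved both ways in these libraries. Of the RGC markers 8 of 12 were higher in mKO, opposite to Grin1, while 5 of 8 photoreceptor markers were lower (930 to 1042 RPM summed against 1165 to 1367 in WT). The sums of amacrine markers (1219 to 1440 against 1471 to 1522) and of endothelial and pericyte markers (529 to 598 against 615 to 633) were also lower in mKO without overlap, with 2 of 8 and 0 of 6 markers called. Of all genes 4.18% were called higher and 6.43% lower. With the GC trend removed 5 RGC markers were higher, and 1 photoreceptor marker and 0 amacrine markers lower (1.24% of all genes higher and 0.874% lower). The part of these markers in the Grin1 difference was not tested.

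Grin2d had 89.3, 83.2 and 66.7 normalised reads in WT and 48.5, 60.4 and 39.5 in mKO non-RGCs. These groups did not overlap either, and the difference was -0.69 ± 0.26 with an adjusted p of 0.118. Grin1 and Grin2d were 2 of 6 members tested with every mKO library below every WT library, a pattern of 19.2% of all genes tested in non-RGCs, and none had every mKO library above (17.5% of all genes). In limma the count of members called was 0, where 10.6% of 15326 genes were called, 2.11% after removal of the GC trend and 1.96% when read density was adjusted for too. At an unadjusted threshold of 0.05 the count was 2, Grin1 and Grin2d, where 29.9% of all genes passed.

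Grin2b had 148, 195 and 184 normalised reads in WT and 287, 197 and 147 in mKO non-RGCs, with a difference of 0.22 ± 0.26 (adjusted p = 0.603). Its mKO libraries spanned the whole WT range. Grin2c had 56.8, 30.0 and 58.4 in WT and 60.9, 70.0 and 55.1 in mKO non-RGCs (0.40 ± 0.31, adjusted p = 0.411), and with the GC trend removed its difference was 0.93 (adjusted p = 0.129). Grin3a had 30.7, 29.0 and 21.9 in WT and 49.3, 46.04 and 24.0 in mKO (0.48 ± 0.35, adjusted p = 0.385), and Grin3b 51.4, 41.6 and 16.7 in WT and 26.2, 40.3 and 28.2 in mKO (-0.09 ± 0.43, adjusted p = 0.907). All 3 had overlapping libraries.

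The GluN2 sum had another make-up in non-RGCs. Grin2c supplied 36.6%, 22.5% and 39.97% of the sum in WT libraries and 38.7%, 44.8% and 48.0% in mKO libraries (exact p = 0.2), more than in any RGC library. Its shares no longer overlapped with the GC trend removed, at 21.3% to 38.6% in WT and 42.5% to 49.1% in mKO (exact p = 0.1). Grin2b supplied 24.8% ± 5.14 in WT and 29.5% ± 6.48 in mKO, with overlap (exact p = 0.4), and Grin2d 41.8% ± 6.49 and 26.2% ± 2.96, without overlap (exact p = 0.1). Grin3a relative to Grin1 was 0.0982 ± 0.0120 in WT and 0.248 ± 0.0973 in mKO, without overlap (exact p = 0.1).

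Whether the genotype difference itself differed between RGCs and non-RGCs was tested over all 12 libraries for the 6 members tested in both fractions. None was called at an adjusted p under 0.05, where 0.107% of 14894 genes were. Grin2c came nearest, with a difference of differences of -0.84 (95% interval -1.65 to -0.03), an unadjusted p of 0.0438 and an adjusted p of 0.493; 10.1% of all genes had an unadjusted p under 0.05. For Grin1 the difference of differences was 0.12 ± 0.27 and for Grin2d -0.10 ± 0.39, with 95% intervals from -0.47 to 0.72 and from -0.94 to 0.74.

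Genes that act with the receptor were taken as 4 lists of 55 genes in all, and 53 of them could be tested in RGCs. Of these, 3 were higher in mKO RGCs and 24 lower, a share of calls to be read against 37.5% over all genes (16.3% higher and 21.2% lower). With the GC trend removed 0 were higher and 12 lower (6.15% and 9.41% of all genes). Without WT library C 5 were higher and 35 lower (23.1% and 27.6% of all genes). Among scaffold and trafficking genes 2 of 11 were higher, Neto2 (0.57 ± 0.13, adjusted p = 0.0121), an auxiliary subunit of kainate receptors, and Dlg1 (0.34 ± 0.08, adjusted p = 0.0135), which encodes the scaffold SAP97. Of the same 11 genes 2 were lower, Dlg4 (-0.60 ± 0.06, adjusted p = 0.000698), which encodes PSD-95, the scaffold that binds the tails of GluN2 subunits, and Shank3 (-0.58 ± 0.14, adjusted p = 0.0183), which lies deeper in the postsynaptic density. With the GC trend removed Dlg4 alone of these 4 remained past the threshold, at -0.45. Without WT library C, 2 of the 11 were higher and 7 lower. The median log2 difference of this list was 0.01.

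Signalling genes at the receptor had 11 of 17 lower and none higher (21.2% and 16.3% of all genes), with a median of -0.35. With the GC trend removed 7 were lower (9.41% of all genes). The largest falls were in Calm3 (-0.72 ± 0.05, adjusted p = 0.000644), one of the calmodulin genes, and in Src (-0.55 ± 0.06, adjusted p = 0.000816), a kinase that acts on GluN2 subunits. Genes of co-agonist and glutamate handling had 5 of 16 tested lower and none higher (median -0.11), where 21.2% and 16.3% of all genes were. With the GC trend removed 2 were lower (9.41% of all genes). Without WT library C 7 were lower and 2 higher (27.6% and 23.1% of all genes). With all libraries the lower genes were led by Slc6a9 (-0.86 ± 0.09, adjusted p = 0.000946), the glycine transporter GlyT1, and Slc17a7 (-0.77 ± 0.13, adjusted p = 0.00456), the vesicular glutamate transporter VGLUT1. Slc6a9 is also an amacrine cell marker, and 5 of 8 amacrine markers were lower in mKO RGCs (898 to 942 RPM summed, against 991 to 1132 in WT). With the GC trend removed 4 amacrine markers were lower.

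Among effectors of excitotoxic death 6 of 9 were lower and 1 was higher (median -0.23), where 21.2% and 16.3% of all genes were. Bax, the pore-forming member of the Bcl2 family, fell by 0.70 ± 0.07 on the log2 scale (adjusted p = 0.000891), and Capns1, the small regulatory subunit of the calpain proteases, fell by 0.67 ± 0.06 (adjusted p = 0.000657). Aifm1, which encodes the mitochondrial apoptosis-inducing factor, was the one that was higher (0.27 ± 0.09, adjusted p = 0.0441). With the GC trend removed 2 of the 9 were lower and none higher, where 9.41% and 6.15% of all genes were.

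In non-RGCs 51 genes of these lists were tested, and 1 was higher and 6 lower, where 4.18% and 6.43% of all genes were. Of the lower genes 5 were the scaffolds Dlg4 (-0.63 ± 0.14), Shank1 (-1.15 ± 0.26) and Shank2 (-0.77 ± 0.21), the kinase Src (-0.55 ± 0.12) and Slc6a9 (-1.03 ± 0.21), with adjusted p from 0.0185 to 0.0427. The gene that rose was Slc17a6 (1.25 ± 0.25, adjusted p = 0.0185), the vesicular glutamate transporter VGLUT2 of RGCs, in the same libraries in which 8 of 12 RGC markers were higher. With the GC trend removed 1 was higher, Slc17a6, and none lower, against 1.24% and 0.874% of all genes.

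Over the 6 RGC libraries Grin1 correlated with Grin2d at r = 0.98 and with Grin2c at 0.86, Grin2b with Grin3a at 0.88, and Grin1 with Grin2b at -0.14, as a description of 6 libraries that include WT library C and differ in GC trend. Among 12663 other genes the pattern of Grin1 was most like that of Pianp, followed by Syn1, Panx2, Sap130 and Pqlc1 (r = 0.998 for each of these 4). The pattern of Grin2b was most like that of Arhgap32 (r = 0.995), Gpatch8, Kcna1, Clcn3 and Dcc (r from 0.989 to 0.993).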

How the data were processed

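RNA of P0 RGCs and non-RGCs was measured by poly-A RNA-seq. The submitters' processing notes name mm10, STAR 2.3.1z4 and featureCounts, and the study's methods name DESeq. The deposited signal is, for each group, the authors' mean of gene counts scaled by size factors. The deposited fold changes and p-values are the authors' comparisons and were not used. The number of unused sample columns was 0.

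Reads of each library were recovered as the only whole numbers that give the 15-digit means, for 100% of genes with reads, and the recovery was tested on simulated data; libraries carry no replicate numbers. Precision follows from 7139633 to 13014004 reads in each library. Reads divided by the authors' size factors were fitted with limma 3.58.1 (R 4.3.3) on log2(value + 1) with a trend of variance on level, in each table apart, over genes reaching a mean of 10 in WT or mKO, called at an adjusted p under 0.05 over all genes tested. A fold on this scale understates the change of low genes. The script was tested on simulated data. Single ratios were compared by exact permutation tests.

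Exon length, GC content and positions came from GENCODE M21 (GRCm38), matched by symbol for 92.1% of genes, with GC known for 94.4% of genes tested in RGCs and 94.6% in non-RGCs. GC trends were removed by lowess (span 0.3) fitted to genes reaching a mean of 50. Other pseudocounts, filters, scalings, weights and libraries left out were tried as alternatives. Pairs of libraries of a group all differed by more than counting noise. Genes named were all members, from each pathway list up to 2 called genes each way by size in RGCs and up to 4 called genes in non-RGCs, and the 5 genes most like Grin1 and Grin2b. Some items that this rule covers are not reported here. The members and lists were chosen with earlier results of these data known.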

Additional observations from a re-analysis of the deposited data

How the results depend on the processing

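Of 290 values of single members recomputed under the alternatives, 246 kept their direction and side of the threshold. Only Grin1 in RGCs was called in the main fit, so for other values keeping the side meant staying uncalled. Of the rest, 33 reversed direction, 4 gained a call in the same direction, and 7 lost their call, all of Grin1 in RGCs. With the GC trend removed, the call counts were 0 members and 12 pathway genes in RGCs and 1 pathway gene in non-RGCs. With trends in GC and reads per base removed they were 0 and 5 in RGCs and 0 pathway genes in non-RGCs. At the study's thresholds (p under 0.05, fold of at least 1.5) they were 2 members and 7 pathway genes in RGCs (16.3% of all genes), 2 members and 8 pathway genes in non-RGCs (15.7%) and 1 member for the difference between fractions (4.95%). With WT RGC library C left out and the GC trend removed, chosen after seeing the data, 3 members were called.

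Leaving out 1 library at a time gave 0 to 2 members and 15 to 40 pathway genes called in RGCs, where 23.6% to 50.8% of all genes were called, and 0 to 1 member and 0 to 9 pathway genes in non-RGCs, where 0.92% to 10.5% were. The pathway count was lowest without an mKO RGC library (15 to 16) and, among WT RGC libraries, 18 without A; in non-RGCs it was 3 without WT A and 0 without WT B or mKO B.

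In RGCs, removing the GC trend turned Grin2c to 0.19 and Grin3b to 0.25, and removing both trends turned Grin2a to -0.29, Grin2c to 0.027 and Grin3b to 0.072. With the GC trend removed and WT library C left out, Grin2a was -0.21, Grin2c 0.075, Grin3a -0.21 and Grin3b 0.031. In non-RGCs Grin3b turned to 0.49 and 0.35 with the first and both trends removed, and the Grin2b share difference to -3.80 percentage points with the GC trend removed. For the difference between fractions, Grin2d turned to 0.014 and 0.097 with the first and both trends removed, and Grin1 to -0.025 with the GC trend and WT RGC library C removed. The cause was not tested.

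Leave-one-out ranges that crossed 0 were -0.17 to 0.23 for Grin2a and -0.0072 to 0.525 for Grin3a in RGCs, -0.035 to 0.44 for Grin2b and -0.56 to 0.22 for Grin3b in non-RGCs, and, between fractions, -0.093 to 0.32 for Grin1, -0.48 to 0.10 for Grin2d, -0.49 to 0.050 for Grin3a and -0.66 to 0.12 for Grin3b. No paired analysis was possible because the recovered libraries carry no replicate numbers. Depth limited Grin2a in non-RGCs, with at most 7 reads in a library.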

Other observations

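Genes that share a name or a fold with the NMDA receptor but are not subunits of it gave values of their own. Grina, which encodes a small membrane protein of the TMBIM family once described as glutamate-binding, was at 2255 normalised reads on average in WT RGCs and 1376 in mKO RGCs, a difference of -0.71 ± 0.05 (limma, Benjamini-Hochberg adjusted p = 0.000644). It remained lower with the GC trend removed (-0.22, adjusted p = 0.0243). In non-RGCs Grina was lower as well (-0.60 ± 0.15, adjusted p = 0.0336), and with the GC trend removed its difference was -0.20 with an adjusted p of 0.354. The delta receptor gene Grid1, which encodes a synaptic organiser of the ionotropic glutamate receptor fold, had a difference of -0.04 (adjusted p = 0.853) in RGCs and of -0.48 (adjusted p = 0.227) in non-RGCs. Every mKO non-RGC library lay below every WT non-RGC library for Grid1, a pattern of 19.2% of all genes tested there.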
